A study of Mus musculus with 17 samples.

Results

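Peritubular myoid and smooth muscle genes are described here in mouse testes and germ cells that lacked Pld6, Dnmt3l or both. The set held 10 genes of the 23980 in each of the 2 deposited expression tables, chosen by name. The genes were Acta2, Myh11, Cnn1, Des, Tagln, Actg2, Mylk, Ptch1, Gli1 and Smoc2, and every one of them was found in both tables. Poly(A) RNA had been sequenced with strand information from C57BL6/J mice. Whole newborn testes (postnatal day 0, P0) gave 11 libraries, with 4 from Pld6 knockouts (KO), 3 from double knockouts (DKO) and 2 each from Dnmt3l KO and wild-type (WT) mice. Leptotene/zygotene (L/Z) spermatocytes, purified by fluorescence-activated cell sorting at 3 to 4 weeks of age, gave 6 libraries, a pair for WT and for either single KO. Pld6 is a mitochondrial protein that helps to make piRNAs, the small RNAs bound by PIWI proteins. Dnmt3l has no catalytic activity and assists the enzymes that methylate DNA de novo, and both are known for their roles in germ cells. The mutant lines had been backcrossed to that strain. The labels call the libraries biological replicates but do not say whether animals were pooled or whether littermates were used.

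Peritubular myoid cells are the flattened, smooth-muscle-like cells that wrap the seminiferous cords and later contract to move fluid and sperm along the tubules. They form in the fetal testis, where Sertoli cells secrete Desert hedgehog and neighbouring mesenchymal cells receive it through the receptor Ptch1. Hedgehog signalling then acts through Gli transcription factors, and Ptch1 and Gli1 are themselves transcribed in response, so their RNA is widely used as a readout of the pathway. The contractile genes are controlled largely by serum response factor (SRF), which binds a short DNA element called the CArG box together with myocardin-family coactivators. Vascular smooth muscle and pericytes share much of the contractile set, and Ptch1 and Gli1 are also expressed by fetal Leydig and other interstitial cells, so none of the 10 genes marks myoid cells alone.

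Promoter sequence was printed for Acta2 because it is the most abundant of the 10 genes and carries the elements that SRF is known to bind. Windows of 300 bases (250 before to 50 after the annotated start, RefSeq, GRCm38.p6) were matched for 5 of the 10 genes, namely Acta2, Cnn1, Des, Mylk and Ptch1. The start used for Des is the first base of that gene's span. Those used for Acta2, Cnn1, Mylk and Ptch1 lie inside the spans of these genes. An exact CArG box, CC and GG around 6 bases that are all A or T, was in none of the 5 windows and in 1.63% of the 32851 windows of all promoters. With 1 G or C allowed among the 6 central bases, a definition chosen after the exact search, the element was in the Acta2 window only, and in 9.98% of all windows. The Acta2 window lies on the minus strand at chr19:34255324-34255623, and the capitals mark its 2 CArG-type elements. The first base of each lies 84 and 34 bases before the annotated start of that window. The gene's span reaches to 34255585, so both elements lie within the span.

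Acta2 promoter: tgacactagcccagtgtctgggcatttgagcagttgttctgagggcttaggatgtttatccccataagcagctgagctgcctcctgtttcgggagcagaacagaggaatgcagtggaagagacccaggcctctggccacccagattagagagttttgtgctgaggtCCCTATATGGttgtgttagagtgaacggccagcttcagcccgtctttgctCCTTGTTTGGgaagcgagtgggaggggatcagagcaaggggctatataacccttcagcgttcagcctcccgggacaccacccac

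The Gli-binding motif GACCACCCA was searched on both strands (TGGGTGGTC on the other). It was in none of the 5 windows, that of Ptch1 included, and in 0.253% of all windows. The missing match says only that these letters are not in the windows searched. It says nothing of SRF or Gli binding elsewhere.

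The mutated genes were read first, as a check of the labels. At P0, Pld6 was at 57 and 40 estimated fragment counts in the WT libraries and at 0 to 2 in the 7 libraries that lacked it. Dnmt3l was at 53 and 72 counts in WT and at 0 to 3 in the 5 Dnmt3l KO and DKO libraries. In Pld6 KO testes Dnmt3l was at 6, 135, 30 and 145 counts. The lowest of these libraries, library 1, also had the lowest summed level of the 16 germ cell markers, 70.4 FPKM (fragments scaled to transcript length and sequencing depth) against 121 to 289 in the other P0 libraries. At L/Z, Pld6 was at 0 in both Pld6 KO libraries and Dnmt3l at 0 in both Dnmt3l KO libraries. Each mutated gene was thus at or near 0 wherever the labels give it as lost. The 6 Dnmt3l counts of Pld6 KO library 1 at P0 lie close to those of the DKO libraries, so the check says less for that label. Libraries held 9900346 to 23498968 counts at P0 and 5194238 to 14578341 at L/Z. At L/Z, WT library 1 and Pld6 KO library 1 took 8.27% and 8.06% of their counts from the 45S ribosomal RNA gene, against 0.134% to 0.301% in the other 4 libraries, and results that rest on them are given with that in view. At P0, where that gene's status was not OK, DKO library 1 took 4.43% of its counts from it, against 0.0% to 0.981% in the other 10 libraries.

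In newborn testes all 10 genes were expressed, at mean levels that ran from 7.25 FPKM (Cnn1) to 282 FPKM (Acta2) over the 11 libraries. Acta2 encodes smooth muscle alpha-actin and stood higher than 99.0% of the genes in the table. Smoc2, which encodes a secreted calcium-binding matrix protein, followed at 180 FPKM, and Tagln, encoding the actin-bundling protein transgelin (SM22), at 96.1 FPKM. Gli1, a transcription factor of the Hedgehog pathway, averaged 56.9 FPKM, Ptch1, the Hedgehog receptor, 46.6 FPKM, and Mylk, the kinase that phosphorylates myosin light chain to start contraction, 45.7 FPKM. Lower still were Myh11, the smooth muscle myosin heavy chain, at 23.7 FPKM, Des, the intermediate filament protein desmin, at 18.3 FPKM, Actg2, the enteric smooth muscle gamma-actin, at 8.36 FPKM, and Cnn1, the actin-binding protein calponin, at 7.25 FPKM. FPKM is scaled to transcript length, so these levels can be compared between genes. Of the 9 steps in that order only the step from Mylk to Myh11 separated the ranges over libraries completely. Ptch1 was above Mylk in 6 of 11 libraries, so their order was not resolved, whereas Smoc2 was above Tagln in 11 of 11.

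The spread among P0 libraries differed between the 10 genes. Smoc2 and Mylk varied least, their highest library being 1.58 and 1.66 times the lowest, whereas the ratio was 4.50 for Cnn1, 3.88 for Tagln and 3.60 for Actg2. The coefficients of variation were 13.9% for Smoc2 and 43.7% for Cnn1. Pld6 KO library 4 was the highest of the 11 libraries for Acta2, Cnn1, Des, Tagln and Actg2, and Dnmt3l KO library 1 was the lowest for Cnn1, Des, Mylk, Ptch1, Gli1 and Smoc2. In whole testes a lower level can mean fewer cells of a type or less RNA per cell, and these cannot be told apart.

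The first question was whether loss of Pld6 was accompanied by a difference in the myoid genes at birth. Tagln was at 46.4 and 64.3 FPKM in the WT libraries and at 115, 54.6, 87.3 and 180 FPKM in Pld6 KO libraries 1 to 4. The groups overlapped because of Pld6 KO library 2, and the log2 fold change was 0.98 ± 0.36 (SE, edgeR, n = 4 against 2, unadjusted p = 0.0168, adjusted p = 0.963). Cnn1 was at 4.42 and 4.58 FPKM in WT and at 7.95, 3.78, 8.81 and 13.9 FPKM in Pld6 KO. Its log2 fold change was 0.93 ± 0.41 (edgeR, unadjusted p = 0.0402, adjusted p = 0.963), with 3 of 4 KO libraries above both WT libraries.

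Acta2 was at 176 and 306 FPKM in WT and at 362, 275, 345 and 428 FPKM in Pld6 KO, giving a log2 fold change of 0.55 ± 0.24 (edgeR, unadjusted p = 0.0379, adjusted p = 0.963). The gap between the 2 WT libraries was wider than the gap between the group means. Des was at 15.2 and 14.9 FPKM in WT and at 24.9, 22.9, 14.0 and 27.3 FPKM in Pld6 KO, with a log2 fold change of 0.57 ± 0.25 (edgeR, unadjusted p = 0.0424, adjusted p = 0.963). Mylk was the member whose groups did not overlap, at 38.3 and 40.8 FPKM in WT and 43.8 to 51.5 FPKM in Pld6 KO, although its log2 fold change was only 0.30 ± 0.18 (edgeR, adjusted p = 0.963). Over all 15901 genes tested, 5.79% had every Pld6 KO library above both WT libraries and 5.74% below, and none of the 10 genes had the latter pattern. The remaining contractile members had log2 fold changes of 0.64 ± 0.41 (Actg2) and 0.21 ± 0.18 (Myh11). Thus all 7 contractile members had positive values, and the Hedgehog readouts Gli1 (0.19 ± 0.19) and Ptch1 (−0.06 ± 0.27) and the matrix gene Smoc2 (0.14 ± 0.19) lay nearer to 0.

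A gene was called at an adjusted p under 0.05 and a fold change over 2. By that rule 0 of the 10 genes were called between Pld6 KO and WT testes, where 0.00629% of all genes tested (1 gene) were called, and DESeq2 and limma called 0 of the 10 as well. At an unadjusted p under 0.05 there were 4 of the 10 genes (Tagln, Acta2, Cnn1 and Des, all higher in the KO) against 5.06% of all genes. That count was 0 without WT library 1, 1 without Pld6 KO library 4 or without DKO library 3, 2 without Pld6 KO library 1 or 3, and 1 with a replicate block. The median log2 fold change was 0.427 over the 10 genes and 0.019 over all genes, and 0.228 over the 10 genes without WT library 1. The direction was shared by 9 of 10 genes, and by 9 or 10 of them in each of 19 alternative settings. The sizes were less stable, and over 18 settings the log2 fold change ran from 0.63 to 1.22 for Tagln, from 0.47 to 1.18 for Cnn1 and from 0.19 to 1.00 for Acta2. In the same comparison the summed level of 12 interstitial and stromal genes was 1920 to 2500 FPKM in WT and 2560 to 4720 FPKM in Pld6 KO, and that of 10 Sertoli cell markers was 3150 to 3190 FPKM in WT and 2570 to 2830 FPKM in Pld6 KO. The part of such differences in the values of the 10 genes was not tested.

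**Figure D1:**
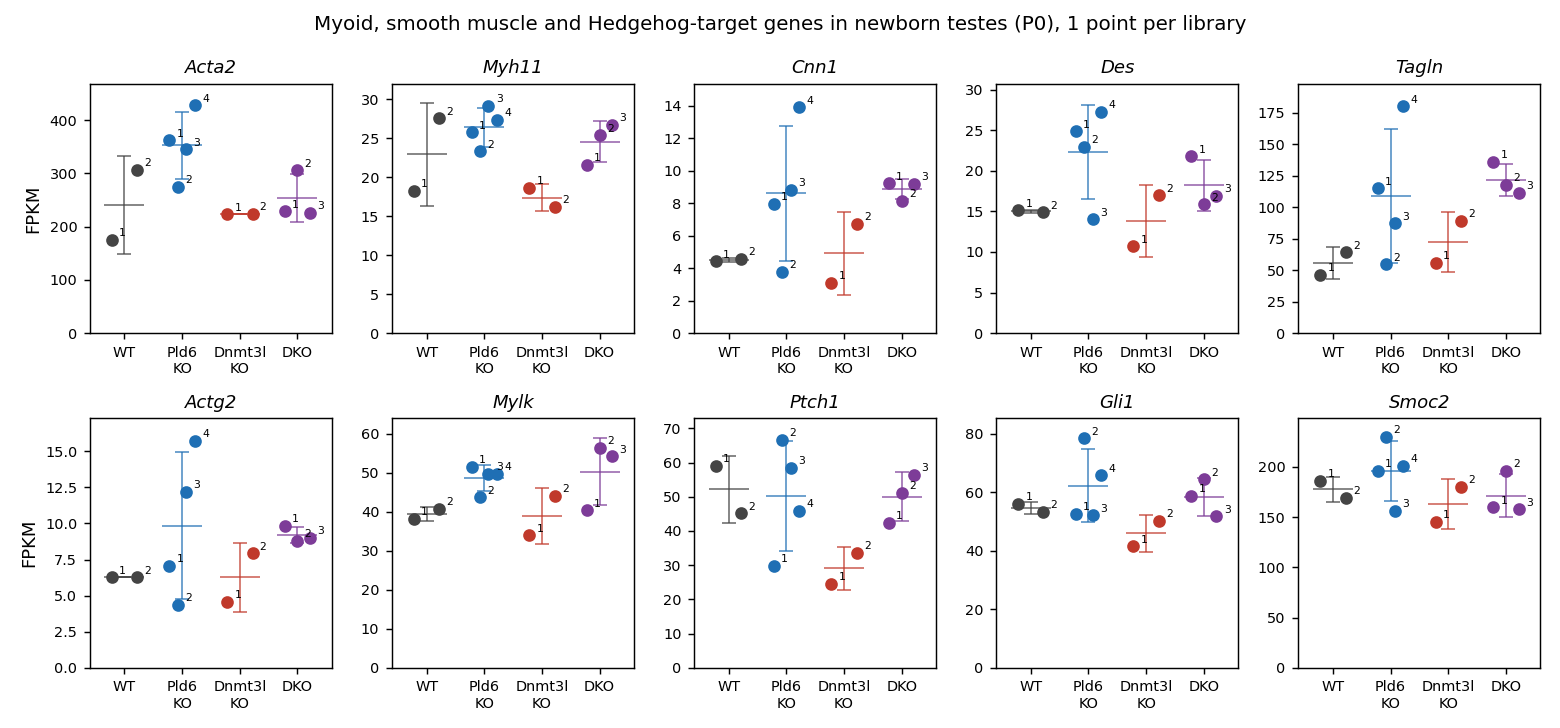
Level (FPKM, y axis from 0) of each of the 10 genes in the 11 P0 libraries, by genotype on the x axis, with points numbered by replicate and bars giving the mean ± SD. Tagln, Cnn1 and Actg2 reach their highest values in Pld6 KO library 4, the 3 DKO libraries lie above both WT libraries for Cnn1, Des, Tagln and Actg2, and both Dnmt3l KO libraries lie below both WT libraries for Ptch1 and Gli1.

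The double mutants gave a second set of testes without Pld6. Tagln was at 136, 118 and 111 FPKM in the DKO libraries, a narrower range than in Pld6 KO and above all 4 libraries that kept Pld6. Its log2 fold change was 1.16 ± 0.38 over WT (edgeR, n = 3 against 2, unadjusted p = 0.00835, adjusted p = 0.442). Cnn1 was at 9.20, 8.15 and 9.20 FPKM, with a log2 fold change of 1.00 ± 0.43 over WT (edgeR, unadjusted p = 0.0354, adjusted p = 0.576). Actg2 was between 8.78 and 9.83 FPKM in the 3 DKO libraries against 6.27 FPKM in both WT libraries (log2 fold change 0.57 ± 0.42). All 3 DKO libraries also exceeded both WT libraries for Des, at 21.8, 15.9 and 17.0 FPKM. These 4 genes made 4 of 10 whose groups did not overlap in that direction, against 14.6% of all genes tested, and none was lower without overlap (14.8% of all genes). The interstitial and stromal genes summed to 2700 to 3440 FPKM in these DKO libraries, against 1920 to 2500 FPKM in WT, and their part was not tested. Acta2 did not share this separation, since the DKO libraries were at 228, 306 and 225 FPKM and its log2 fold change was 0.09 ± 0.25.

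Between DKO and WT 0 of the 10 genes were called by edgeR in the fit of all genotypes, against 0.0126% of all genes (2 genes), and 2 were at an unadjusted p under 0.05 against 7.97% of all genes. The latter count was 0 without WT library 1 and 1 without WT library 2 or without DKO library 3. DESeq2 and limma also called 0. With the DKO and WT libraries fitted alone, Tagln was called (log2 fold change 1.15, adjusted p = 0.0187), as were 102 genes in all in that fit. The adjusted p for Tagln ran from 0.0187 to 1.0 over its 18 alternative settings, and its log2 fold change from 0.93 to 1.40. Without DKO library 1, the one with the most 45S RNA at P0, it was 1.08 (edgeR, adjusted p = 0.675). The DKO and Pld6 KO comparisons share their WT libraries. Between the DKO and Pld6 KO directly, Acta2 had a log2 fold change of −0.46 ± 0.21 (edgeR, unadjusted p = 0.0456, adjusted p = 0.824), and the groups overlapped for all 10 genes, where 2.93% of all genes were higher and 3.85% lower without overlap. Here edgeR called 0 of the 10 genes and 0 of all genes, with 1 of 10 and 6.02% of all genes at an unadjusted p under 0.05. The count of 1 was 0 without DKO library 1 or 3, without either Dnmt3l KO library, and without Pld6 KO library 1 or 4. DESeq2 called 6 genes and limma 0, none of them among the 10.

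**Figure D2:**
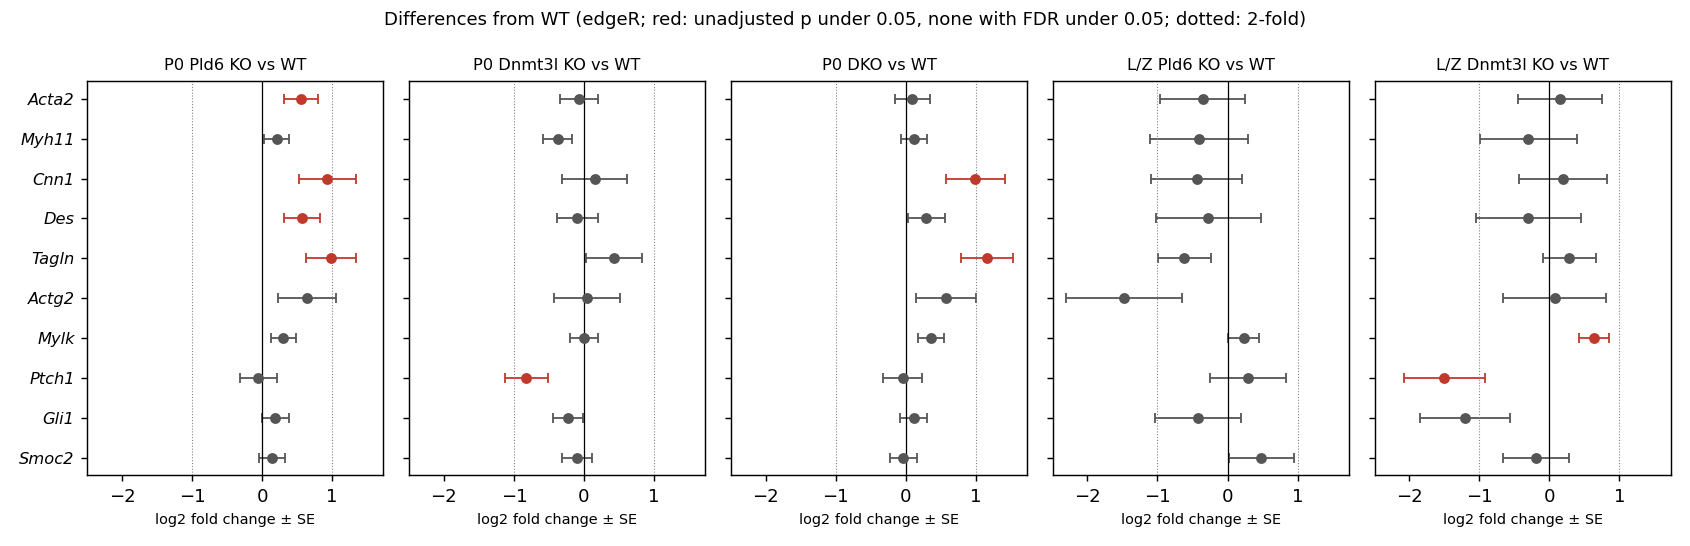
Log2 fold change (x axis, edgeR, bars ± SE) of each gene (y axis) against WT in the 3 mutant genotypes at P0 and the 2 at L/Z, with red points for an unadjusted p under 0.05 and dotted lines at a 2-fold difference. Tagln and Cnn1 lie near 1 in both P0 genotypes without Pld6, and Ptch1 is the lowest point in Dnmt3l KO at both stages (−0.82 and −1.50).

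Loss of Dnmt3l alone was compared next. Ptch1, the Hedgehog receptor, had the lowest unadjusted p of the 10 genes. It was at 59.1 and 45.2 FPKM in the P0 WT libraries and at 24.5 and 33.6 FPKM in Dnmt3l KO, so the groups did not overlap. Its log2 fold change was −0.82 ± 0.31 (edgeR, n = 2 against 2, unadjusted p = 0.0192, adjusted p = 0.327). In Pld6 KO Ptch1 was at 29.8, 66.6, 58.4 and 45.8 FPKM, values that spanned those of WT. In the DKO Ptch1 was at 42.3, 51.1 and 56.5 FPKM, which overlapped those of WT. Gli1, which answers to the same signal, was at 56.1 and 53.3 FPKM in WT and at 41.5 and 50.4 FPKM in Dnmt3l KO (log2 fold change −0.23 ± 0.22). Ptch1 and Gli1 were the 2 of 10 genes with both Dnmt3l KO libraries below both WT libraries, a pattern found in 26.4% of all genes tested, and none of the 10 had the opposite pattern (22.5%).

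In Dnmt3l KO against WT testes, 0 of the 10 genes were called by edgeR, DESeq2 or limma. Of all 15901 genes edgeR called 0, DESeq2 71 and limma 0 or 1 depending on the pseudocount. Of the 10 genes 1, Ptch1, was at an unadjusted p under 0.05 against 12.9% of all genes, and the count was 0 without Dnmt3l KO library 1. The contractile members were spread around 0, from −0.38 ± 0.21 for Myh11 to 0.43 ± 0.40 for Tagln on the log2 scale.

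The comparison of the DKO with Dnmt3l KO used the same 2 Dnmt3l KO libraries, so it is not a separate observation of their low Ptch1. For Ptch1 it gave a log2 fold change of 0.78 ± 0.29 (edgeR, n = 3 against 2, unadjusted p = 0.0174, adjusted p = 0.193), and all 3 DKO libraries were above both Dnmt3l KO libraries. Myh11 was at 21.6, 25.4 and 26.7 FPKM in the DKO and at 18.6 and 16.2 FPKM in Dnmt3l KO, a log2 fold change of 0.49 ± 0.19 (edgeR, unadjusted p = 0.0212, adjusted p = 0.209). Tagln and Cnn1 had log2 fold changes of 0.73 ± 0.37 and 0.84 ± 0.42 in this comparison. The groups did not overlap for 7 of the 10 genes (Acta2, Myh11, Cnn1, Tagln, Actg2, Ptch1 and Gli1), each higher in the DKO, against 19.9% of all genes tested, and none was lower without overlap (17.8%). By the call rule 0 of the 10 genes passed, against 0.0755% of all genes (12 genes), with 2 of 10 and 17.8% of all genes at an unadjusted p under 0.05, and DESeq2 and limma called 0. The count of 2 ran from 1, without Dnmt3l KO library 1 or DKO library 3, to 5, without Dnmt3l KO library 2.

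Whether the double loss equalled both single losses added on the log2 scale was asked with an interaction term. Ptch1 gave the largest value of the 10 genes, 0.83 ± 0.39 on the log2 scale (edgeR, unadjusted p = 0.0498, adjusted p = 0.456). The value also rests on those Dnmt3l KO libraries. Ptch1 was the 1 gene of 10 at an unadjusted p under 0.05, against 10.9% of all genes, and the count was 0 when WT library 1, Dnmt3l KO library 1, Pld6 KO library 1 or 4, or DKO library 2 or 3 was left out. In the fit of all libraries 0 of the 10 genes and 0 of all genes had an adjusted p under 0.05 by edgeR. DESeq2 gave 54 genes and limma 0, none of them among the 10.

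After the values had been seen, the effect of each mutation at P0 was averaged over both states of the other, so that all 11 libraries entered each estimate. Averaged over both Dnmt3l genotypes, all 10 genes had positive log2 fold changes for loss of Pld6, and this held in every one of 18 alternative settings. The largest were Cnn1 with 0.88 ± 0.29 (SE, edgeR, unadjusted p = 0.00973, adjusted p = 0.265) and Tagln with 0.86 ± 0.26 (unadjusted p = 0.00522, adjusted p = 0.243). Actg2 had 0.59 ± 0.29, Des 0.48 ± 0.18, Acta2 0.36 ± 0.17, Myh11 0.35 ± 0.13 and Mylk 0.33 ± 0.13. The smallest was Smoc2 with 0.10 ± 0.14. Of the 10 genes, 0 were called by edgeR, DESeq2 or limma, and of all genes edgeR called 0.044% (7 genes). By edgeR 5 of the 10 were at an unadjusted p under 0.05 (Cnn1, Tagln, Des, Myh11 and Mylk) against 12.7% of all genes. The count of 5 was 2 without WT library 1 or without Dnmt3l KO library 1, and 8 without Pld6 KO library 1. The median was 0.36 over the 10 genes and 0.005 over all 15901 genes. Lists of other genes had positive values in this average too. Of the interstitial and stromal genes 12 of 12 were positive, with a median of 0.423 and 5 at an unadjusted p under 0.05, as were 14 of 14 contractile and actin-binding genes, 7 of 7 SRF regulators and 6 of 6 tested matricellular relatives of Smoc2. The part of these lists in the values of the 10 genes was not tested.

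Averaged over both Pld6 genotypes, loss of Dnmt3l gave 0 of the 10 genes called by edgeR, DESeq2 or limma, and 0 of the 10 genes at an unadjusted p under 0.05 against 9.6% of all genes. The latter count ran from 0 to 2 when 1 library was left out, the 2 being without WT library 1. Of all genes edgeR called 0, DESeq2 29 and limma 0 or 2 depending on the pseudocount. Ptch1 had the lowest value, −0.41 ± 0.19 (edgeR, unadjusted p = 0.0559, adjusted p = 0.531).

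The other genes of the same pathways, taken from fixed lists, were read beside the 10. Of the 15 further Hedgehog pathway genes all were tested at P0 and 0 were called in any comparison between genotypes. Dhh, the ligand made by Sertoli cells, ran from 35.9 to 78.8 FPKM over the 11 libraries, and its log2 fold change in Pld6 KO was −0.56 ± 0.21 (edgeR, unadjusted p = 0.0208, adjusted p = 0.963). Smo, the signal transducer that Ptch1 represses, ran from 41.3 to 58.1 FPKM, while the alternative ligands Shh and Ihh stayed at or under 0.519 FPKM. In Dnmt3l KO against WT 12 of the 15 had negative log2 fold changes, and 3 were lower at an unadjusted p under 0.05, where 12.9% of all genes were at that p in either direction. In the same comparison the Sertoli cell markers summed to 3150 to 3190 FPKM in WT and 2200 to 2590 FPKM in Dnmt3l KO, and the germ cell markers to 130 to 159 and 186 to 289 FPKM, and their part was not tested. Among the 3 were Disp1, which releases the ligand, with −0.70 ± 0.24 (edgeR, unadjusted p = 0.01, adjusted p = 0.31), and Gli2, the main transcriptional activator of the pathway, with −0.53 ± 0.20 (edgeR, unadjusted p = 0.0181, adjusted p = 0.323).

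Of 14 further contractile and actin-binding genes, 11 had positive log2 fold changes in Pld6 KO against WT testes, and 0 were called. By edgeR 5 of them were at an unadjusted p under 0.05, against 5.06% of all genes. Whether that count rests on a single library was not tested. The interstitial and stromal genes also summed higher in Pld6 KO, and their part was not tested. Myl6, Tpm1, Myl9 and Csrp1 were the most abundant. Csrp1, a LIM protein of the actin cytoskeleton, ran from 112 to 274 FPKM with a log2 fold change of 0.66 ± 0.25 (edgeR, unadjusted p = 0.0185, adjusted p = 0.963), and the essential light chain Myl6 from 511 to 1140 FPKM with 0.50. Among 7 regulators of the SRF pathway, Srf itself ran from 9.17 to 19.0 FPKM. Its log2 fold change was 0.02 ± 0.16 for Pld6 KO, whereas Dnmt3l KO gave −0.59 ± 0.18 (edgeR, unadjusted p = 0.00605, adjusted p = 0.30). In Dnmt3l KO 7 of the 7 regulators had negative values (median −0.39), and 0 were called. By edgeR 2 of them were at an unadjusted p under 0.05, against 12.9% of all genes. The Sertoli and germ cell sums given above differed in that comparison too, and their part was not tested.

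Other sources of contractile RNA were read from marker lists. The 16 skeletal and cardiac muscle markers summed to 16.4 to 42.2 FPKM over the P0 libraries. The highest was DKO library 3 and the second highest WT library 1, at 35.0 FPKM. Tnni2, Mylpf and Tnnt3 had the highest mean levels of the list, at 3.06 to 7.39, 2.33 to 7.36 and 1.32 to 5.45 FPKM. Myod1, a myogenic factor, was at or under 0.05 FPKM. The 12 pericyte and endothelial markers summed to 209 to 217 FPKM in WT, 225 to 261 in Pld6 KO, 195 to 231 in Dnmt3l KO and 204 to 271 in the DKO. The 10 epididymis and efferent duct markers summed to 78.7 to 110 FPKM in all libraries, nearly all of it from Hoxd9 and Hoxd10, with Cdh16 at or under 2.10 FPKM. The sum thus says little of the other markers. In the DKO against WT 7 of the 8 duct markers tested had positive log2 fold changes, with a median of 1.122. By edgeR 3 of them were at an unadjusted p under 0.05, against 7.97% of all genes. For Pld6 loss averaged over both Dnmt3l genotypes 7 of the 8 were positive, with a median of 0.536. The part of duct tissue in the values of the 10 genes was not tested. None of the 3 lists had a gene called between P0 genotypes. Pld6 KO library 4, highest for 5 of the contractile genes, was at 28.3 FPKM for the skeletal and cardiac list. It was also the highest of the 11 libraries for the interstitial and stromal genes, at 4720 FPKM against at most 3440 FPKM elsewhere, and for the 8 Leydig cell markers, at 2820 FPKM against at most 1910 FPKM. The part of these sums in its contractile values was not tested.

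The 10 genes did not vary as a block over the 11 P0 libraries. Correlations of log2 CPM (counts scaled to library size) between pairs of genes were computed at both stages, 90 in all, with permutation p-values over libraries (100000 resamples at P0, two-sided) adjusted over the 90. Cnn1 and Actg2 were the most closely related pair, with Pearson's r = 0.938 (permutation p = 3e-05, adjusted p = 0.0027) and Spearman's rho = 0.945 (permutation p = 5e-05, adjusted p = 0.0045). Without the 2 libraries farthest from the median of Cnn1 the r was 0.894, and after subtraction of genotype means it was 0.944. Cnn1 and Tagln gave r = 0.932 (permutation p = 0.0001, adjusted p = 0.0045) and rho = 0.864 (permutation p = 0.00128, adjusted p = 0.0576), with 0.935 without the 2 farthest libraries and 0.909 within genotypes.

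Tagln and Actg2 gave r = 0.818 (permutation p = 0.00208, adjusted p = 0.047) and rho = 0.764 (permutation p = 0.00848, adjusted p = 0.153), with 0.775 without the 2 farthest libraries. These 3 genes encode parts of the mature smooth muscle contractile apparatus. Each pair of them had an adjusted p under 0.05 for r, but for rho only Cnn1 and Actg2 did. Gli1 and Smoc2 formed the fourth pair with an adjusted p under 0.05 for r, at r = 0.812 (permutation p = 0.00209, adjusted p = 0.047) and rho = 0.80 (permutation p = 0.00484, adjusted p = 0.109), but the r was 0.526 without the 2 libraries farthest from the median of Gli1.

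Acta2, the best known myoid marker, had its highest r with Myh11, at r = 0.736 (permutation p = 0.00997, adjusted p = 0.15) and rho = 0.664 (permutation p = 0.0306, adjusted p = 0.359), with 0.672 without the 2 farthest libraries. With Tagln it had r = 0.552 (permutation p = 0.0779, adjusted p = 0.27) and rho = 0.518 (permutation p = 0.106, adjusted p = 0.366). Without the 2 libraries farthest from the median of Acta2 the r with Tagln was 0.0463, so that relation rested on those libraries. The 21 pairs among the 7 contractile genes were all positive, from 0.26 to 0.938 with a median of 0.544, and the median within genotypes was 0.36. For the 14 pairs of a contractile gene with Ptch1 or Gli1 the median was 0.186, and −0.197 within genotypes. At L/Z, over 6 libraries, the same 14 pairs had a median of 0.413, and 0.915 within genotypes. The 21 contractile pairs had 0.728 and 0.884. With 2 libraries per genotype at L/Z, deviations from a genotype mean are equal and opposite. The r within genotypes thus rests on very few values there. In WT and Pld6 KO these values set a library rich in ribosomal RNA against its partner, and all 10 genes were higher in the rich library. Whether the 2 kinds of pair differ within genotypes at L/Z therefore cannot be told. At P0 their medians differed, but that difference was not tested. The libraries share depth and tissue composition, so the pairs are not independent of each other.

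**Figure D3:**
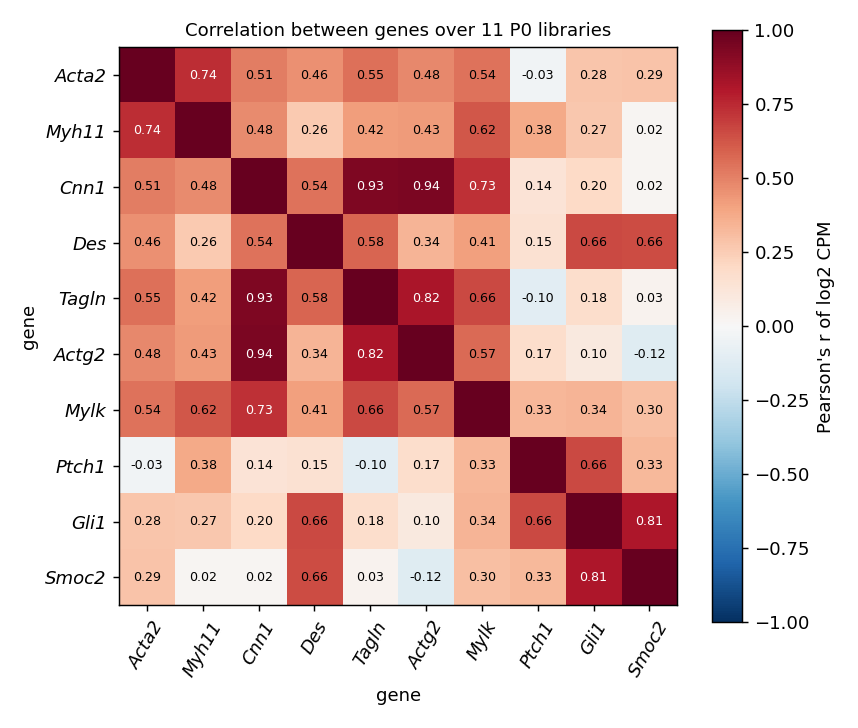
Pearson's r of log2 CPM over the 11 P0 libraries for each pair of the 10 genes (both axes), with colour from −1 (blue) to 1 (red) and r printed in each square. Cnn1, Tagln and Actg2 form the darkest group (0.82 to 0.94), and Ptch1 is close to 0 with Acta2, Cnn1 and Tagln.

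A library's place on each axis was summarised as a mean z-score, in SD units, of log2 CPM. For the 7 contractile genes the 4 libraries that kept Pld6 were at −1.07 and −0.35 (WT) and −1.32 and −0.37 (Dnmt3l KO). The Pld6 KO libraries were at 0.60, −0.45, 0.49 and 1.38, and the DKO libraries at 0.21, 0.50 and 0.39. Pld6 KO library 2 was thus the exception among the 7 libraries without Pld6, and it was also the library with the highest mean z-score of Ptch1 and Gli1, 1.64. Dnmt3l KO library 1 was lowest on both scores.

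**Figure D4:**
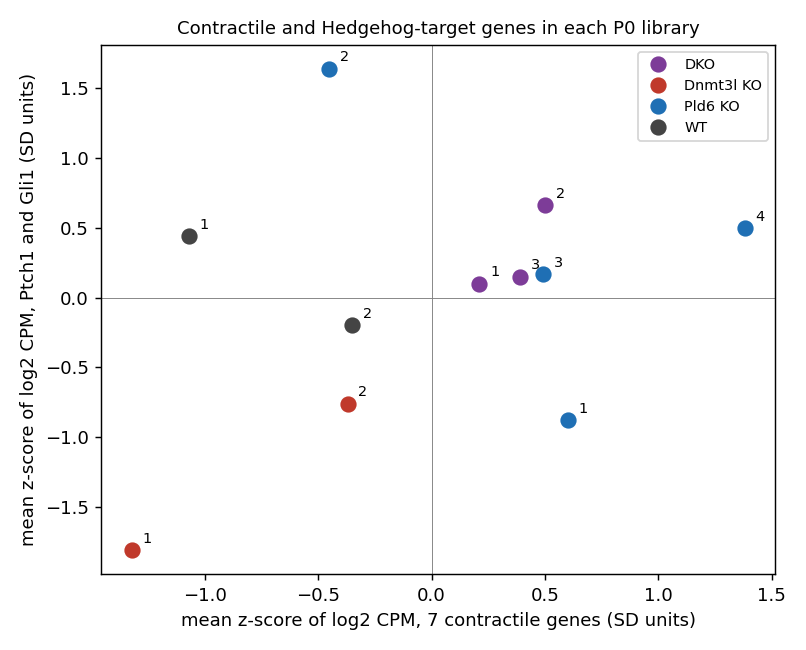
Each P0 library placed by the mean z-score (SD units) of log2 CPM over the 7 contractile genes (x axis) and over Ptch1 and Gli1 (y axis), coloured by genotype and numbered by replicate. The WT and Dnmt3l KO libraries lie left of 0, the DKO libraries and 3 of 4 Pld6 KO libraries right of 0, and Pld6 KO library 2 lies top left.

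Genes outside the set were ranked by likeness to these scores, as a description over 11 libraries among the 10687 genes that averaged 10 CPM or more. Closest to the contractile score were Ntrk3 (Pearson's r = 0.964), a neurotrophin receptor, Cpz (0.94), a carboxypeptidase, Zcchc5 (0.939), Csrp1 (0.938), Fmod (0.933), the collagen-binding proteoglycan fibromodulin, and Ltbp1 (0.914), which binds latent TGF-beta. Csrp1 was on the fixed contractile list. Among the genes closest to the Ptch1 and Gli1 score were Med25 (0.925), a subunit of the Mediator complex, Tyk2 (0.915), a Janus kinase, and Ell (0.912), an elongation factor of RNA polymerase II. The median over all genes ranked was −0.0373 for the first score and −0.0328 for the second.

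L/Z spermatocytes are germ cells and were sorted, so the myoid genes there were read beside their level in newborn testes. In WT the levels were lower than in P0 testes for all 10 genes, with ratios of P0 to L/Z mean FPKM from 3.68 for Actg2 and 3.70 for Tagln to 29.4 for Smoc2 and 63.2 for Gli1. The 2 tables had been normalised separately, and tissue, age, sorting and read type differ between them, so these ratios carry no test. The order at L/Z was headed by Acta2 (mean 20.7 FPKM over 6 libraries), Tagln (14.3) and Mylk (12.6), and Gli1 was last at 0.627 FPKM. Among all genes at this stage Acta2, Tagln and Mylk stood higher than 78.9%, 73.7% and 71.9%, and Gli1 higher than 42.9%. Mylk varied least at this stage, from 8.84 to 17.7 FPKM, whereas Des ran from 0.212 to 2.03 FPKM, on 3 to 78 counts.

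Acta2 was at 32.9 and 10.3 FPKM in WT, 9.75 and 37.1 FPKM in Dnmt3l KO and 23.2 and 10.9 FPKM in Pld6 KO. The libraries of a genotype differed more than the genotypes did. The first library named in WT and in Pld6 KO is the one rich in 45S ribosomal RNA, and it was above its partner for 10 of the 10 genes in both genotypes, a pattern seen in 29.6% of the 14662 genes tested at L/Z. In Dnmt3l KO, where neither library was rich in 45S RNA, library 2 was above library 1 for 8 of the 10 genes, against 47.5% of all genes. The summed level of the 10 Sertoli cell markers was 313 to 458 FPKM in WT, 281 to 444 in Pld6 KO and 79.6 to 291 in Dnmt3l KO, and that of the 16 germ cell markers was 1890 to 3040, 2160 to 3180 and 4900 to 5150 FPKM. Whether the part of somatic RNA in a library moved the 10 genes was not tested.

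Ptch1 was at 6.49 and 1.59 FPKM in L/Z WT, at 6.31 and 3.66 FPKM in Pld6 KO and at 0.939 and 1.80 FPKM in Dnmt3l KO. Both Dnmt3l KO libraries were below both Pld6 KO libraries, but library 2 of the Dnmt3l KO was above WT library 2. The log2 fold change was −1.50 ± 0.58 against WT (edgeR, n = 2 against 2, unadjusted p = 0.0251, adjusted p = 0.129) and −1.79 ± 0.58 against Pld6 KO (unadjusted p = 0.0105, adjusted p = 0.186). DESeq2 called both, with adjusted p = 0.0415 and 0.0324, and over 15 alternative settings the adjusted p ran from 0.0188 to 0.901 and from 0.0153 to 0.574. Against WT the value was −2.17 without WT library 2 (adjusted p = 0.0207) and −1.50 without Pld6 KO library 1 (adjusted p = 0.0485), and against Pld6 KO it was −1.79 without WT library 1 (adjusted p = 0.0483). These were the settings without 1 library in which edgeR called Ptch1. The DESeq2 fits that called Ptch1 called 994 genes in all against WT and 355 against Pld6 KO, of 14662 tested. The size against WT rested on WT library 1, rich in 45S RNA, since without it the value was −0.15 (edgeR, adjusted p = 0.901). With a factor for the 45S-rich libraries, added after seeing the data, it was −0.51 against WT (adjusted p = 0.501) and −1.07 against Pld6 KO (adjusted p = 0.326). Gli1 was at 1.12 and 0.611 FPKM in WT and at 0.234 and 0.468 FPKM in Dnmt3l KO, on 4 and 23 counts in the latter, and its log2 fold change was −1.20 ± 0.64. Among 14 tested Hedgehog pathway genes at L/Z 11 had negative values in Dnmt3l KO against WT, with a median of −0.494 and 0 called.

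Mylk had the opposite direction at L/Z. It was at 11.4 and 8.84 FPKM in WT, 12.4 and 11.3 FPKM in Pld6 KO and 17.7 and 14.0 FPKM in Dnmt3l KO, so that both Dnmt3l KO libraries were above the other 4. Its log2 fold change was 0.64 ± 0.22 over WT (edgeR, unadjusted p = 0.0133, adjusted p = 0.095). The 1 member higher and the 1 member lower without overlap in Dnmt3l KO, Mylk and Gli1, are to be set beside 28.1% and 27.6% of all genes. In Pld6 KO against WT 1 member, Actg2, was lower without overlap (21.5% of all genes) and none higher (21.3%). Tagln was at 18.8 and 11.1 FPKM in WT, 12.6 and 7.15 FPKM in Pld6 KO and 13.6 and 22.5 FPKM in Dnmt3l KO. Its log2 fold change in Dnmt3l KO against Pld6 KO was 0.90 ± 0.38 (edgeR, unadjusted p = 0.0376, adjusted p = 0.259).

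By edgeR, 0 of the 10 genes were called in any L/Z comparison. All genes gave 0.225% called in Pld6 KO against WT, 5.47% (802 genes) in Dnmt3l KO against WT and 0.0477% in Dnmt3l KO against Pld6 KO. At an unadjusted p under 0.05 there were 0, 2 and 2 of the 10 genes against 9.17%, 26.7% and 17.5% of all genes. Without 1 library the first of these counts ran from 0 to 3, the 3 being without Pld6 KO library 1. The second ran from 0 without Dnmt3l KO library 1 to 3 without Dnmt3l KO library 2, and was 1 without either WT library. The third ran from 2 to 3 without 1 library, the 3 being without Pld6 KO library 1. With the factor for 45S-rich libraries the count was 4 in Dnmt3l KO against WT, beside 23.8% of all genes. It was 6 in Dnmt3l KO against Pld6 KO, beside 11.9%, and stayed 0 in Pld6 KO against WT, beside 13.2%. The factor moved the median log2 fold change of the 10 genes from −0.057 to 0.75 in Dnmt3l KO against WT. In Dnmt3l KO against Pld6 KO that median moved from 0.259 to 0.891. With the factor 8 of the 10 genes had positive values in both of these comparisons. DESeq2 called 0, 1 and 1 of the 10 genes, Ptch1 in each case, and limma 0. Of all genes DESeq2 called 90, 994 and 355. In Pld6 KO against WT the lowest value was that of Actg2, −1.48 ± 0.82 on 8 and 4 counts in the KO, followed by Tagln with −0.62 ± 0.38, and Smoc2 had 0.48 ± 0.46. Among the listed genes of other cell types, Nr2f2 of the interstitial list and Nr5a1 of the Leydig list were called lower in Dnmt3l KO against WT, with log2 fold changes of −2.19 and −1.54 (edgeR, adjusted p = 0.0269 and 0.0468), as was Myh3 of the skeletal muscle list (−3.02, adjusted p = 0.0187). Called higher were Mrc1 of the macrophage list (1.92, adjusted p = 0.0395) and 6 of the 16 germ cell markers, of which Prdm9, Meiob, Dmc1 and Hormad1 had the lowest adjusted p. Myh4 of the skeletal muscle list was called lower in Dnmt3l KO against Pld6 KO (−6.39, adjusted p = 0.047). Over the L/Z libraries Myh4 ran from 0.0 to 0.972 FPKM and Myh3 from 0.035 to 1.52 FPKM, so both fold changes rest on low levels.

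**Figure D5:**
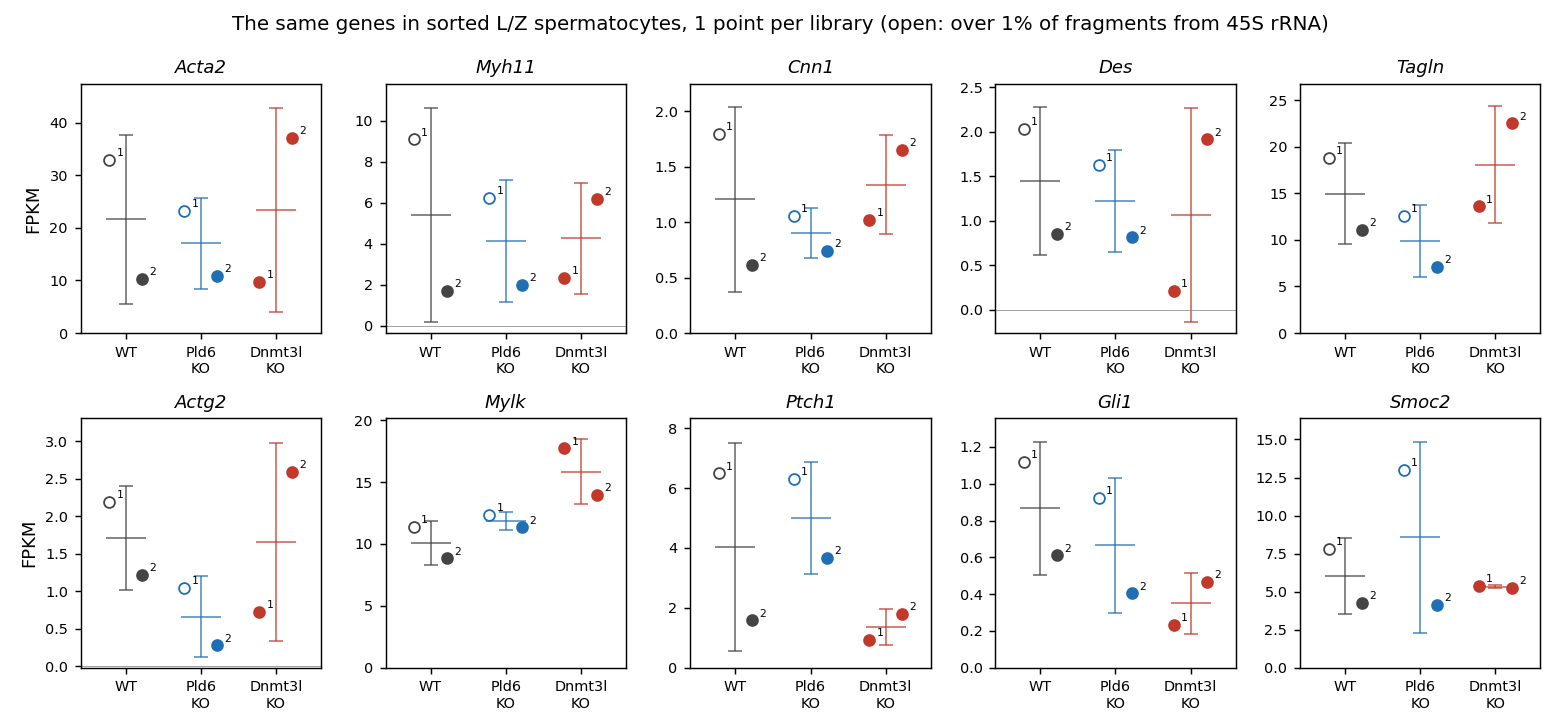
Level (FPKM, y axis) of the 10 genes in the 6 L/Z libraries by genotype (x axis), with points numbered by replicate, open points for the libraries rich in 45S ribosomal RNA and bars for the mean ± SD. Open points lie above their filled partner for every gene in WT and Pld6 KO, and both Dnmt3l KO points lie above all others for Mylk.

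All 10 genes are protein-coding in RefSeq GRCm38.p6. Acta2 lies at chr19:34240336-34255585, Myh11 at chr16:14194527-14292188, Mylk at chr16:34745199-35002436, Cnn1 at chr9:22099221-22109221, Tagln at chr9:45929628-45936058, Des at chr1:75360292-75368579, Actg2 at chr6:83512909-83536251, Ptch1 at chr13:63508328-63573460, Gli1 at chr10:127329882-127341579 and Smoc2 at chr17:14279490-14404790. The span of Tagln shares 2480 bases with Pcsk7 and that of Gli1 66 bases with Arhgap9, both protein-coding, and Des, Actg2, Mylk and Smoc2 overlap long noncoding RNAs. Whether strand was used in counting is not given in the sources used here, so fragments within those overlaps cannot be assigned with certainty.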

How the data were processed

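Gene-level tables of 17 poly(A) RNA libraries were used, 1 table per stage. Per the labels and the study's methods, libraries were made with a stranded kit and read as single (L/Z) or paired (P0) reads. The authors aligned reads with TopHat2 to mm10 and quantified RefSeq genes with Cuffdiff, versions not given in the sources used here. For every gene in every library the deposited tables give the estimated count that Cuffdiff assigned, unscaled, and the FPKM that the authors' run derived from it. Of the estimated counts, 98.4% (L/Z) and 98.3% (P0) were whole within 0.001. Replicates were not pooled, and the tables' replicate numbers, which start from 0, were matched to the labels in increasing order. Genes without an OK status in every library were removed (6 at L/Z, 2 at P0).

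Counts were rounded and tested with edgeR 4.0.16 in R 4.3.3 (filterByExpr, TMM, glmQLFit, glmQLFTest, all groups of a stage in 1 fit), with Benjamini-Hochberg adjustment over all genes tested. A gene was called at an adjusted p under 0.05 and a fold change over 2, except for the interaction, which had no fold threshold. SE is the absolute log2 fold change divided by the square root of F. p-values measure the spread between libraries. Scripts were tested on simulated data. Alternatives were DESeq2 1.42.0, its size factors, no filter, the compared groups alone, limma 3.58.1 on log2 FPKM with a pseudocount of 1 or 0.1, dropping the fold threshold, a replicate block and leaving out each library. Added after seeing the data were a factor for 45S-rich libraries, a crossed block at L/Z, and each mutation averaged over the other at P0.

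The 10 genes and the lists were chosen with earlier results of these data known. Named genes were the 10, Pld6, Dnmt3l, called genes of 12 lists (at most 4 per list and comparison, by adjusted p), up to 4 of the highest P0 level per list, and the genes most alike in profile. Others, such as Disp1, Gli2, Shh, Ihh, Myod1 and Cdh16, were named after their values were seen. A gene that the rule names is not reported here. Log2 CPM used a prior count of 2. Correlations and figures used scipy 1.17.1, matplotlib 3.10.9 and pandas 2.3.3 under Python 3.11.15.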

Additional observations from a re-analysis of the deposited data

How the results depend on the processing

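The count of the 10 genes called was 0 in every comparison between genotypes and kept that value under most alternatives. It was 1 in L/Z Dnmt3l KO against WT and 1 in L/Z Dnmt3l KO against Pld6 KO (Ptch1 each time) by the DESeq2 Wald test, and again 1 and 1 under a replicate block crossed for Dnmt3l KO, an alternative added after seeing the data. Leaving out 1 library gave 0 to 1 in both. With the compared groups alone it was 1 in P0 DKO against WT (Tagln). The cause of these differences was not tested. Directions of small effects were less stable. Of 110 fold changes (10 genes in 11 contrasts), 47 changed sign under at least 1 alternative, the largest of them being 0.671 on the log2 scale in the fit of all groups. In L/Z Dnmt3l KO against WT the number of the 10 genes with a positive value ran from 1 to 8, and in L/Z Pld6 KO against WT from 1 to 8. At P0 it ran from 9 to 10 in Pld6 KO, from 7 to 10 in the DKO and from 1 to 6 in Dnmt3l KO, each against WT. Leaving out 1 library gave log2 fold changes from −0.28 to 0.53 for Acta2, from −0.23 to 0.14 for Ptch1 and from −0.144 to 0.0168 for Smoc2 in P0 DKO against WT, from −0.0765 to 0.531 for Myh11 and −0.24 to 0.13 for Ptch1 in P0 Pld6 KO against WT, and from −0.53 to 1.09 for Smoc2 in L/Z Pld6 KO against WT.

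The labels do not say that a replicate number marks a litter or day, and libraries with the same number did not deviate together in every pair of groups (correlation of deviations 0.485 for WT and Pld6 KO at L/Z, −0.144 for WT and Dnmt3l KO, and −0.332 to 0.271 at P0). With the replicate block 0 of the 10 genes were called in any comparison, and Smoc2 in P0 DKO against WT was at 0.0546. Counts over all genes moved more, from 1 to 1282 in L/Z Dnmt3l KO against WT (802 in the fit of all groups), from 1 to 101 in L/Z Pld6 KO against WT (33), from 0 to 516 in L/Z Dnmt3l KO against Pld6 KO (7), from 0 to 14 in P0 Pld6 KO against WT (1), from 0 to 71 in P0 Dnmt3l KO against WT (0), from 1 to 102 in P0 DKO against WT (2), from 0 to 6 in DKO against Pld6 KO (0), from 0 to 258 in DKO against Dnmt3l KO (12) and from 0 to 54 for the interaction (0). With 2 libraries in most groups, and 3 to 78 counts for Des, Actg2, Cnn1 and Gli1 at L/Z, counting error and few libraries limit the precision there.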

Other observations

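With the effect of Pld6 loss at P0 averaged over both Dnmt3l genotypes, several genes of the fixed lists had larger test values than the 10 genes. Smtn, encoding the smooth muscle protein smoothelin, had 0.55 ± 0.11 (edgeR, unadjusted p = 0.000215, adjusted p = 0.107). Lmod1, which nucleates actin filaments in smooth muscle, had 0.94 ± 0.19 (adjusted p = 0.11), and the collagen gene Col1a1 had 1.07 ± 0.22 (adjusted p = 0.11). Mkl1, a coactivator of SRF, had 0.62 ± 0.14 (adjusted p = 0.149). These 4 were named after their values were seen. Col1a1 ran from 139 to 582 FPKM over the 11 libraries.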
